A study of Mus musculus with 60 samples.

Results

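The forkhead (Fox) genes encode transcription factors that share the forkhead, or winged-helix, DNA-binding domain. They were taken as every gene symbol of the RNA-seq table that consists of Fox, a subfamily letter from a to s and a number, without antisense and opposite-strand transcripts, which gave 44 of 24508 symbols. Of these, 21 had a mean of at least 0.5 RPKM (reads per kilobase of transcript, scaled for depth) over all libraries and were tested, and the other 23 were too scarce for the test. The study measured RNA in hippocampus taken at 30 weeks of age from WT mice and from R6/1 mice, both on a mixed background labelled as CBA x C57BL/6 in equal parts, with 9 libraries per genotype that the labels call independent biological replicates. R6/1 is a Huntington's disease model that carries a transgene with the first exon of human HTT and an expanded CAG repeat under the human promoter, so the mutant protein is a fragment present beside the mouse's own huntingtin in all tissues. The series also holds lamin B1 domains (broad regions that contact the nuclear lamina), 1 list per genotype, from chromatin of pooled hippocampi (5 mice per pool, 3 replicates).

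Forkhead factors bind a short A- and T-rich core, and many can open compacted chromatin. In the brain, FoxO factors carry the signal of insulin and growth factors and leave the nucleus when phosphorylated by AKT, and Foxj1 switches on the genes of motile cilia in ependymal cells. FoxP factors act in neuronal differentiation and circuits, FoxK factors work with the Sin3 corepressor, and Foxc1, Foxf2 and Foxq1 are known from brain vessels, their pericytes and the meninges.

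The family ranged from genes at several RPKM or more to genes near the limit of detection. Among the tested genes, the largest differences between genotypes were in the scarce FoxD genes. Foxd2 was 19.4 times as high in R6/1 as in WT and Foxd1 2.85 times, while Foxq1 fell to 0.606 times its WT mean. Among the abundant members, Foxj3, Foxo3 and Foxo4 were modestly higher and Foxk1 and Foxn2 modestly lower. Of the 21 tested genes, 10 were called at the adjusted limma threshold of 0.05, set over 14446 genes, 7 higher and 3 lower in R6/1. Over all genes tested, 48.3% were called, 24.8% higher and 23.5% lower, so the family's share of 47.6% was close to that of all genes. Groups did not overlap for 3 members (Foxd2, Foxd1 and Foxm1), against 11.9% of all genes tested. These 3 had a WT mean under 0.5 RPKM and passed the filter only through their level in R6/1, so their place among the tested genes favoured a difference.

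The promoters of the FoxD genes that moved are shown because these genes rose most, together with that of Foxe3, which lies next to Foxd2 and gave almost no reads. Each line holds 250 bases before and 50 after a start site, 5′ to 3′ on the gene's strand, from RefSeq on GRCm38.p6, and capitals mark CG dinucleotides. The Foxd2 stretch is chr4:114908849-114909148 on the minus strand, that of Foxe3 chr4:114926018-114926317 on the minus strand, and that of Foxd1 chr13:98353995-98354294 on the plus strand.
Foxd2: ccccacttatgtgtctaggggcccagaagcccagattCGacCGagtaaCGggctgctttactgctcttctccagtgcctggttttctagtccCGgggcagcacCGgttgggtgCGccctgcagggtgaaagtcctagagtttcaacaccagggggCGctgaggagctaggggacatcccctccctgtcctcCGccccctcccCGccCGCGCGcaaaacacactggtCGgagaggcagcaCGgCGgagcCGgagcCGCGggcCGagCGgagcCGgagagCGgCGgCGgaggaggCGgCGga
Foxe3: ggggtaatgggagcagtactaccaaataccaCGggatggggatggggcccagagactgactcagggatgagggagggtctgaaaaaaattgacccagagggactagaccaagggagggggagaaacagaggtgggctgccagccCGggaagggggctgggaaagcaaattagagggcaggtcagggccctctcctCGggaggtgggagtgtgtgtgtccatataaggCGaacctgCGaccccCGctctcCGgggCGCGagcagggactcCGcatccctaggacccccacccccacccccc
Foxd1: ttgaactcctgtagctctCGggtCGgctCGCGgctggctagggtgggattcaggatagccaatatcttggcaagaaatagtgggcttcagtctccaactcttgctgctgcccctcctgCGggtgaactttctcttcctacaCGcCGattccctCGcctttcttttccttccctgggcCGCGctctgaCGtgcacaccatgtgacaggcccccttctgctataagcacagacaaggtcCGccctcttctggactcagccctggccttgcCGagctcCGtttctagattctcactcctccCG
The Foxd2 promoter held 26 CG dinucleotides, the Foxd1 promoter 15 and the Foxe3 promoter 10. RefSeq promoters were matched for 28 of the 44 genes, which gave 33 promoters with a median of 22 CG dinucleotides, against 7 over all 32851 promoters of the same length. The forkhead core GTAAACA, searched on both strands, where it reads TGTTTAC on the other, was in 1 of the 33 (that of Foxa1) and in 3.65% of all promoters. A match describes the letters only.

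The RNA libraries held between 12299434 and 16736544 reads on genes, recovered from the deposited values. All 8 hippocampal markers (among them Zbtb20, Neurod6 and Camk2a) were detected and lower in R6/1, with a summed level of 1202 to 1449 RPKM in WT and 579 to 689 RPKM in R6/1. All 10 dentate granule neuron markers were lower too. Lower markers were not particular to these cells. They were 7 of 8 for CA3 and 6 of 8 for CA1 pyramidal neurons and 8 of 10 for inhibitory neurons. For astrocytes they were 7 of 10, for oligodendrocytes 6 of 10 and for microglia 5 of 10. In these lists 1 CA1 marker and 1 astrocyte marker were higher, against 24.8% higher and 23.5% lower over all genes tested. Choroid plexus transcripts varied widely within each genotype: Ttr, the plexus' most abundant transcript, ran from 19.0 to 1035 RPKM in WT and from 33.4 to 1696 RPKM in R6/1. In a tissue sample, fewer cells of a type and less RNA per cell cannot be told apart.

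**Figure D1:**
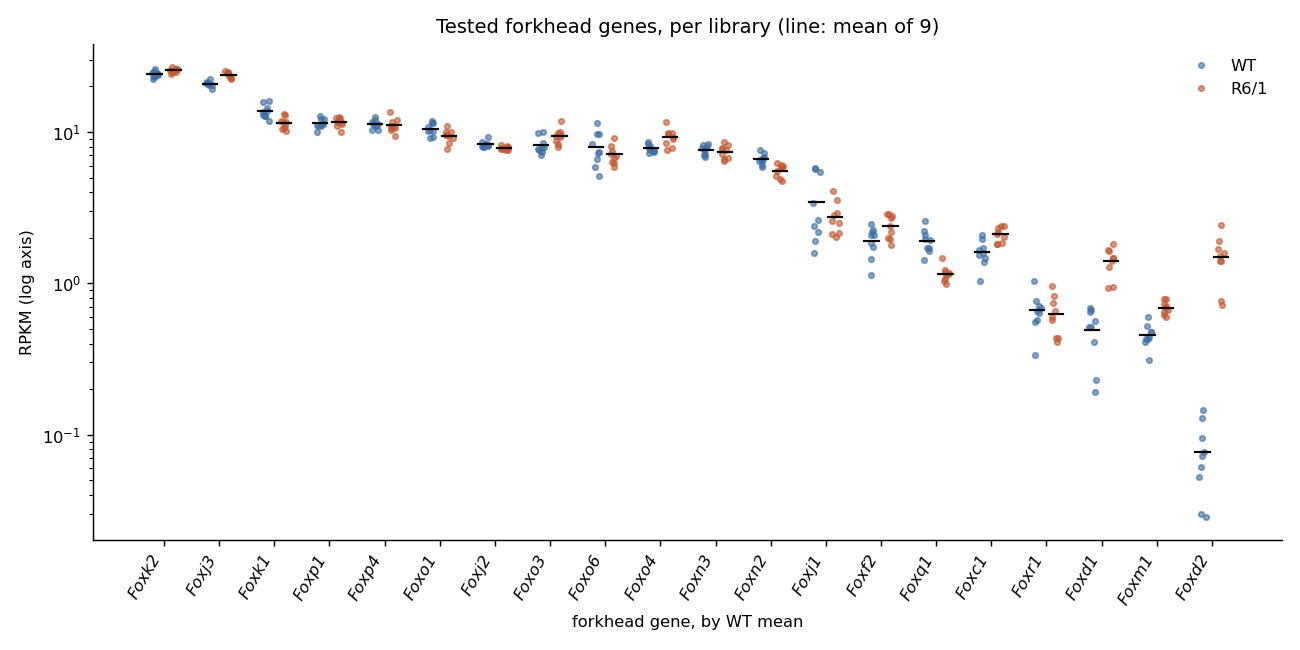
RPKM of 20 of the 21 tested forkhead genes in each library (log axis; points, libraries; lines, means of 9 libraries per genotype), ordered by the WT mean. Of these, Foxk2 and Foxj3 lie highest, at 24.2 and 20.9 RPKM in WT, and the largest gap between genotypes is that of Foxd2 at the right edge.

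The FoxD genes encode developmental regulators, Foxd1 of kidney stroma, retina and hypothalamus and Foxd2 of facial and kidney mesenchyme. Foxd2 (chromosome 4, 114578885 to 114581503, NCBIM37, minus strand) ran from 0.0285 to 0.145 RPKM in the WT libraries, with a median of 0.0727, which were 1 to 6 reads per library. In R6/1 it ran from 0.722 to 2.42 RPKM, with a median of 1.53, or 26 to 106 reads per library. Every R6/1 library was above every WT library, and the lowest R6/1 libraries, replicates 7 and 5 (0.722 and 0.768 RPKM), stood under the next at 1.41 RPKM. The means were 0.0767 ± 0.0404 and 1.49 ± 0.524 RPKM (SD, n = 9 each), and the log2 fold change was 1.74 ± 0.136 (SE, limma adjusted p = 3.41e-09). The log2 fold changes here are of RPKM + 0.5, which understates the change of scarce genes: the authors' deposited table gives 2.88 for Foxd2, a pseudocount of 0.1 gave 3.12 and limma voom on the recovered reads 4.11. On those reads voom gave 1.52 for Foxd1. The WT level rests on 26 reads in all and is known only to counting error.

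Foxd1 (chromosome 13, 99124200 to 99126660, plus strand) lay between 0.192 and 0.682 RPKM in WT, with a median of 0.516. In R6/1 it lay between 0.931 and 1.83 RPKM, with a median of 1.46, and the groups again did not overlap. The means were 0.492 ± 0.182 and 1.40 ± 0.308 RPKM, and the log2 fold change was 0.95 ± 0.123 (limma adjusted p = 3.08e-06). The WT libraries with the least Foxd1, replicates 1 and 9, held 0.192 and 0.228 RPKM, and the next 0.411 RPKM. The remaining FoxD genes were silent or nearly so: Foxd3, a neural crest regulator, had 0 reads in all 18 libraries, and Foxd4 had 2 reads in each genotype.

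The surroundings of Foxd2 moved unevenly. Foxd2os, the transcript named for the opposite strand of Foxd2, went from 8 reads over the WT libraries to 72 over the R6/1 libraries (0.0197 ± 0.0255 against 0.178 ± 0.111 RPKM), and the authors' deposited table calls it higher (adjusted p = 4.87e-06). The library kit keeps strand, but whether the counting used it is not given in the sources used here, so reads of the pair may not be fully separated. Foxe3, a lens regulator whose start lies 17.2 kb from that of Foxd2, had 0 reads in WT and 3 in R6/1. Cmpk1, which lies beyond Foxe3, was abundant and not called (39.3 against 38.0 RPKM, limma adjusted p = 0.335). Stil, 91.2 kb away on the same side, was too scarce for the test and went from 0.0907 to 0.355 RPKM.

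**Figure D2:**
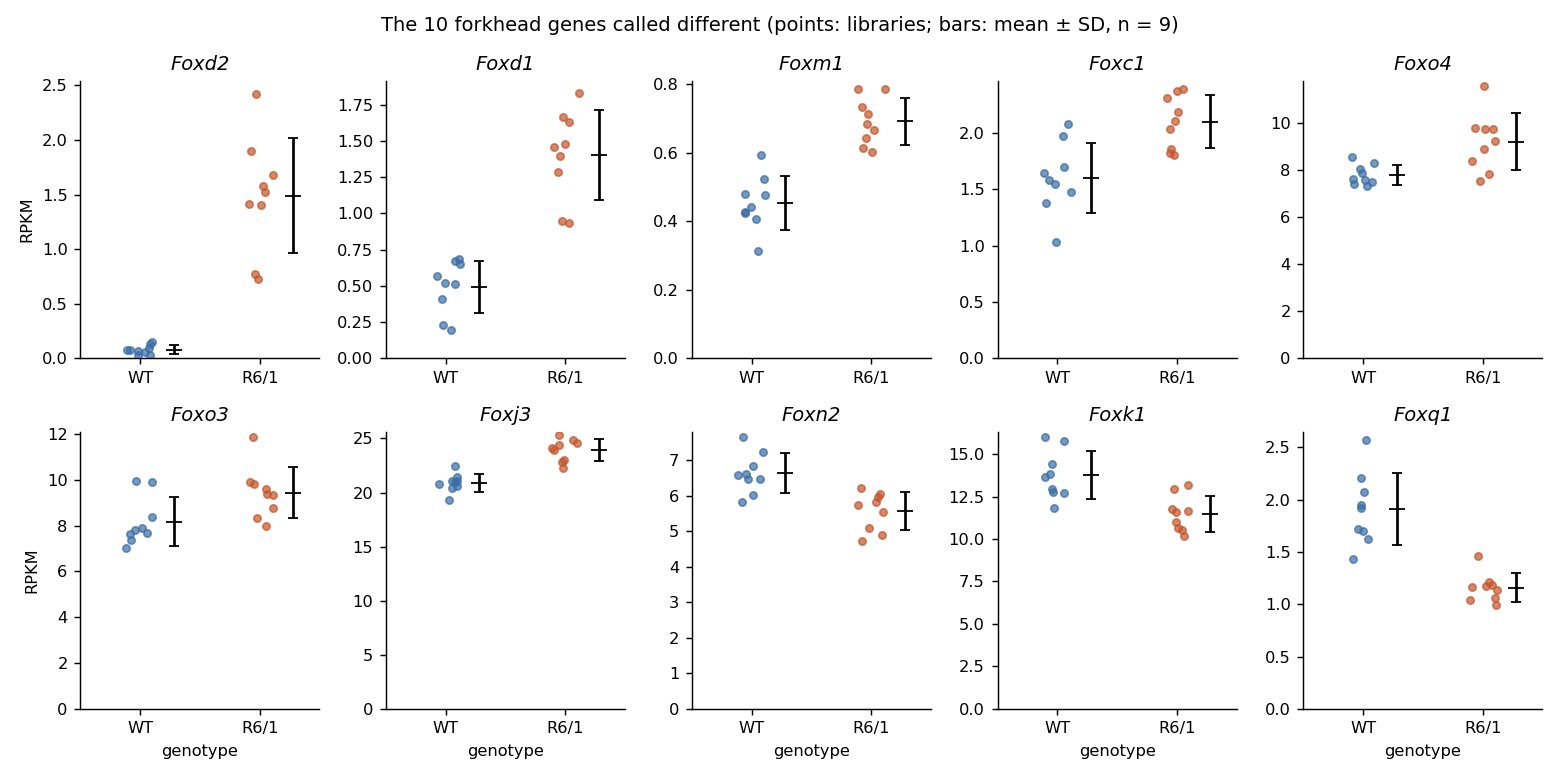
RPKM per library of the 10 forkhead genes called different, in order of their log2 fold change (points, libraries; bars, mean ± SD, n = 9; axes start at 0). The genotypes are separate for Foxd2, Foxd1 and Foxm1, and overlap for the other 7, for Foxq1 by a single R6/1 library at 1.46 RPKM.

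Foxm1 activates genes of the G2 and M phases in dividing cells. It ran from 0.313 to 0.595 RPKM in WT (median 0.442) and from 0.602 to 0.786 RPKM in R6/1 (median 0.684), or 17 to 36 and 43 to 57 reads per library. The groups met edge to edge without overlapping. The means were 0.454 ± 0.0785 and 0.692 ± 0.0680 RPKM, and the log2 fold change was 0.32 ± 0.0706 (limma adjusted p = 0.000795). With a pseudocount of 0.1 it was 0.52 and with limma voom 0.60. For the gene lists, the shares over all genes tested were 24.8% higher and 23.5% lower. Of 20 cell division genes downstream of Foxm1, 6 were abundant enough to test, 2 of them higher, 3 lower and 1 not called. Their median log2 fold change was -0.14, against 0.0036 over all genes tested. Among the called genes, the changes largest on the log2 scale were opposite in sign: Kif20a, a mitotic kinesin, rose from 0.700 to 1.27 RPKM, whereas Cdc25b, a phosphatase that starts mitosis, fell from 6.24 to 3.71 RPKM and Cenpa, the centromeric histone, from 0.838 to 0.438 RPKM. The genes of the list too scarce to test went both ways. Top2a (0.236 against 0.0403 RPKM) and Mki67 (0.292 against 0.105 RPKM), both marks of dividing cells, had lower means in R6/1, without overlap. These were named after their values were seen. Ccna2, Ccnb2, Cdk1, Cdc25c and Cenpf also had lower means in R6/1. Nek2 (0.350 against 0.556 RPKM), Cenpe (0.338 against 0.529 RPKM), Birc5, Aurkb, Ccnb1, Ttk and Bub1 had higher means.

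The genes known from vessels and meninges did not move as a group. Foxc1, which is needed in meninges and pericytes, ran from 1.03 to 2.08 RPKM in WT (median 1.59) and from 1.81 to 2.39 RPKM in R6/1 (median 2.11). The upper WT libraries reached into the R6/1 range. The means were 1.60 ± 0.310 and 2.10 ± 0.234 RPKM, and the log2 fold change was 0.32 ± 0.0865 (limma adjusted p = 0.00485). The list of pericyte, smooth muscle and meningeal markers did not move that way: 0 of its 19 members were higher, 3 were lower (Rgs5, Lum and Pdgfrb) and 16 were not called, with a median log2 fold change of -0.18. Its summed level was 126 to 234 RPKM in WT and 116 to 147 RPKM in R6/1, and none of its markers was at 0. Within a genotype, Foxc1 was higher where the list was higher. In R6/1 Pearson's r was 0.751 (exact permutation p = 0.0115, adjusted over 10 relations 0.0230) and Spearman's rho 0.750 (p = 0.0255, adjusted 0.0425, n = 9), with r at 0.642 without the 2 libraries farthest from the list's median. In WT rho was 0.967 (exact permutation p = 0.000165, adjusted 0.00165) and r 0.694 (p = 0.0535, adjusted 0.0668, n = 9), with r at 0.865 without the 2 farthest. The part of these cells in the difference between genotypes was not tested.

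Foxq1 is expressed in brain endothelium and lies in the same cluster of chromosome 13, 248 kb from Foxc1. It ran from 1.43 to 2.57 RPKM in WT (median 1.92) and from 0.991 to 1.46 RPKM in R6/1 (median 1.16). R6/1 replicate 4 alone, at 1.46 RPKM, reached into the WT range. The means were 1.91 ± 0.344 and 1.16 ± 0.136 RPKM, and the log2 fold change was -0.53 ± 0.0816 (limma adjusted p = 2.13e-05). The gene A530084C06Rik overlaps Foxq1 on the other strand, and its reads may not be separated. The same limit holds for Foxj3 (overlapped by Gm12959) and Foxn2 (by snoU13), which were also called, and for several members that were not called. Of 15 brain endothelium markers, 1 was higher (Slc2a1, the glucose transporter of the barrier), 4 were lower, the largest being Tek and Tie1, and 10 were not called, with a median log2 fold change of -0.15. Their summed level was 115 to 168 RPKM in WT and 141 to 176 RPKM in R6/1, with none at 0. That sum includes Slc2a1, the 1 marker called higher, with means of 41.3 RPKM in WT and 54.8 RPKM in R6/1. The part of these markers in the Foxq1 result was not tested. Across the WT libraries Foxq1 had r = 0.678 with this list (exact permutation p = 0.0461, adjusted 0.0658) and rho = 0.633 (p = 0.0760, adjusted 0.107, n = 9), and r was 0.532 without the 2 farthest libraries. In R6/1 r was -0.30 (exact permutation p = 0.423, adjusted 0.423) and rho -0.067 (p = 0.880, adjusted 0.880, n = 9), with r at -0.33 without the 2 farthest. Whether the relation differs between genotypes was not tested.

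Foxf2, a regulator of brain pericytes, lies between them on chromosome 13, 67.6 kb from Foxq1 and 181 kb from Foxc1. It ran from 1.13 to 2.48 RPKM in WT (median 2.09) and from 1.78 to 2.86 RPKM in R6/1 (median 2.40), with wide overlap. The means were 1.92 ± 0.423 and 2.39 ± 0.426 RPKM, and the log2 fold change of 0.26 ± 0.111 just missed the threshold (limma adjusted p = 0.0552). Leaving out WT replicate 2, 4 or 9, or R6/1 replicate 3, 8 or 9, brought it to a call, with adjusted p from 0.0300 to 0.0497, and over all alternatives it ranged from 0.0188 to 0.104. So of 3 neighbours in this cluster, 1 rose, 1 fell and 1 was not called.

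The FoxO genes had WT means from 7.81 to 10.5 RPKM. Foxo1, the most abundant, ran from 9.06 to 11.9 RPKM in WT (median 10.4) and from 7.71 to 11.0 RPKM in R6/1 (median 9.52), largely overlapping. Its means were 10.5 ± 0.984 and 9.44 ± 0.939 RPKM, and its log2 fold change of -0.15 ± 0.0619 was not called (limma adjusted p = 0.0582). It was called without WT replicate 2 (adjusted p = 0.0279), WT replicate 9 (0.0340) or R6/1 replicate 6 (0.0242), and over all alternatives the adjusted p ran from 0.0198 to 0.324. Foxo3, the FoxO factor most tied to stress resistance and autophagy, had 8.18 ± 1.06 RPKM in WT and 9.45 ± 1.12 RPKM in R6/1 (log2 fold change 0.20, limma adjusted p = 0.0308). That call was lost without any of 7 libraries (WT replicates 1, 3, 4 and 9 and R6/1 replicates 1, 4 and 6), with adjusted p from 0.0503 to 0.0630 then. Foxo4 was higher and kept its call under every alternative, with 7.81 ± 0.428 against 9.22 ± 1.22 RPKM (log2 fold change 0.22, limma adjusted p = 0.00706). Foxo6, the FoxO gene most typical of neurons, had 7.95 ± 2.04 and 7.11 ± 1.01 RPKM and was not called (log2 fold change -0.12, limma adjusted p = 0.418).

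Genes around the FoxO factors moved in both directions, as did the full set of genes tested (24.8% higher and 23.5% lower). Of 26 tested genes of the insulin and growth factor pathway upstream of FoxO, 8 were higher, 6 lower and 12 not called, with a median log2 fold change of 0.033. Igf1, the growth factor, fell from 1.37 to 0.690 RPKM (limma adjusted p = 9.34e-07). Sgk1, a kinase that phosphorylates FoxO factors, rose from 18.6 to 32.9 RPKM (limma adjusted p = 0.000553). Of 26 tested classical FoxO target genes, 9 were higher, 6 lower and 11 not called, with a median of 0.027. Cdkn1a, which encodes the cell-cycle inhibitor p21, rose from 3.01 ± 0.991 to 12.8 ± 5.57 RPKM (limma adjusted p = 4.76e-06). Cited2, a transcriptional coregulator, rose from 14.1 to 20.5 RPKM, and Cat, which encodes catalase, fell from 21.3 to 14.5 RPKM.

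**Figure D3:**
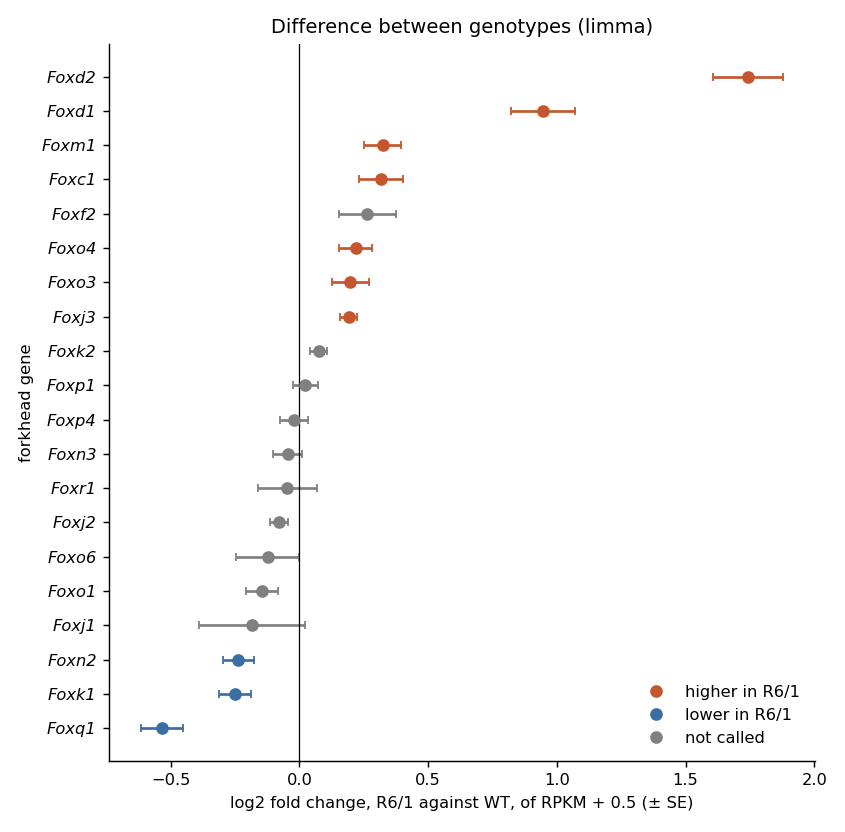
Log2 fold change of RPKM + 0.5 in R6/1 against WT for 20 of the 21 tested forkhead genes (points) with its limma standard error (bars, 9 libraries per genotype). Foxd2 at 1.74 and Foxd1 at 0.95 stand apart from the others, of which Foxm1, at 0.32, is the highest and Foxq1, at -0.53, the lowest.

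In the FoxJ subfamily 1 of 3 genes was called. Foxj3, known as an activator of Mef2c in muscle, ran from 19.3 to 22.5 RPKM in WT (median 21.0) and from 22.2 to 25.3 RPKM in R6/1 (median 24.1), and only the top of the WT range reached the bottom of the R6/1 range. The means were 20.9 ± 0.848 and 23.9 ± 1.01 RPKM, and this small change of 0.19 ± 0.0326 on the log2 scale had a limma adjusted p of 7.05e-05. Foxj2 was not called, with 8.32 ± 0.429 and 7.85 ± 0.224 RPKM (log2 fold change -0.08, limma adjusted p = 0.0731).

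Foxj1, the regulator of motile cilia, varied widely in WT, with 1.59 to 5.82 RPKM (median 2.60) against 2.03 to 4.07 RPKM in R6/1 (median 2.57). WT replicates 1, 3 and 5 lay at 5.46 to 5.82 RPKM and the other 6 at or below 3.38 RPKM. It was not called (3.44 ± 1.73 against 2.75 ± 0.690 RPKM, log2 fold change -0.19, limma adjusted p = 0.482). With Ttr as a covariate the log2 fold change was -0.32 (limma adjusted p = 0.0587), without WT replicate 1, 3 or 5 it was -0.10, -0.09 or -0.09, and without WT replicate 8 it was -0.28, none of them called. The adjusted p ran from 0.0587 to 0.751 over all alternatives. The ependymal markers, of which 5 were tested, had 0 higher, 2 lower (Rarres2 and Meig1) and 3 not called, with a summed level of 8.22 to 24.2 RPKM in WT and 7.76 to 15.5 RPKM in R6/1. Of 15 choroid plexus markers 0 were called, and their summed level ran from 28.6 to 1102 RPKM in WT and from 43.6 to 1780 RPKM in R6/1. No marker of either list was at 0 in all libraries, but some were at 0 in single libraries, among them Kcne2 and Steap1 in WT.

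Within each genotype, Foxj1 was higher where the ependymal list was higher. Across the WT libraries r was 0.877 (exact permutation p = 0.00153, adjusted 0.00879) and rho 0.900 (p = 0.00203, adjusted 0.00676, n = 9), with r at 0.948 without the 2 farthest libraries. In R6/1 r was 0.824 (exact permutation p = 0.00352, adjusted 0.00879) and rho 0.867 (p = 0.00451, adjusted 0.00902, n = 9), with r at 0.623 without the 2 farthest. With the choroid plexus list, r in WT was 0.896 (exact permutation p = 0.00299, adjusted 0.00879) and rho 0.917 (p = 0.00131, adjusted 0.00656, n = 9), with r at 0.799 without the 2 farthest. In R6/1 that r was 0.709 (exact permutation p = 0.0325, adjusted 0.0542) and rho 0.617 (p = 0.0857, adjusted 0.107, n = 9), with r at 0.292 without the 2 farthest. Leaving out the farthest libraries narrows the range of the list, so the lower r does not show what the relation rests on. Over the 6 WT libraries other than replicates 1, 3 and 5, r was 0.552 with the ependymal list (exact permutation p = 0.272, rho = 0.714, p = 0.136) and 0.544 with the choroid list (exact permutation p = 0.279, rho = 0.771, p = 0.103). Those 6 were picked by their Foxj1 level after the data were seen, which narrows its range, so these values do not test the relation.

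Motile cilium genes downstream of Foxj1 changed in both directions, as did the full set of genes tested (24.8% higher and 23.5% lower). Of 22 cilium genes tested, 3 were higher, 6 lower and 13 not called, with a median log2 fold change of -0.19. Rfx3, a transcription factor that works with Foxj1 and is also expressed in neurons, fell from 15.5 ± 1.93 to 8.26 ± 0.811 RPKM (limma adjusted p = 6.60e-09). Ccdc153 fell from 1.93 ± 1.36 to 0.625 ± 0.298 RPKM (limma adjusted p = 0.00405). Its ranges, 0.551 to 4.78 RPKM in WT and 0.238 to 1.10 RPKM in R6/1, overlapped. Spag6, a protein of the central pair of the axoneme, rose from 1.41 ± 0.205 to 4.62 ± 0.642 RPKM (limma adjusted p = 4.58e-11).

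**Figure D4:**
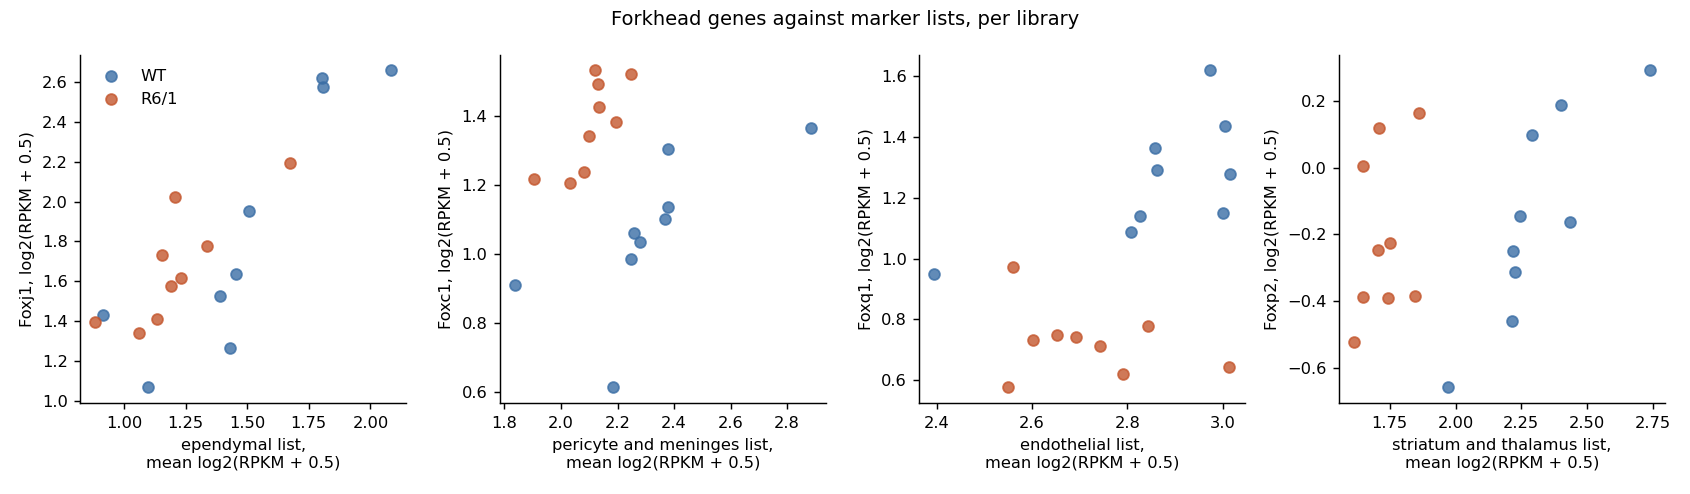
Level of Foxj1, Foxc1, Foxq1 and Foxp2 in each library against the mean level of a marker list, both as log2(RPKM + 0.5) (points, libraries; 9 per genotype). Foxj1 rises with the ependymal list in WT (r = 0.877) and in R6/1 (r = 0.824). Foxc1 had a higher mean in R6/1 and Foxq1 a lower one, and the genotypes overlap only in part in the level of either list. Whether either gene differs between genotypes at a given list level was not tested.

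Both FoxK genes, repressors that recruit Sin3 and hold back autophagy genes, were well expressed, and 1 of the pair was called. Foxk2 ran from 22.4 to 26.1 RPKM in WT (median 24.3) and from 24.0 to 27.1 RPKM in R6/1 (median 25.7), with most libraries in the shared range. The means were 24.2 ± 1.09 and 25.5 ± 0.931 RPKM, with a log2 fold change of 0.07 ± 0.0321 that was not called (limma adjusted p = 0.0615). It was called higher without WT replicate 1 (adjusted p = 0.0228) or R6/1 replicate 3 (0.0382), and over all alternatives the adjusted p ran from 0.000208, with libraries scaled by their own read totals, to 0.117. Foxk1 fell, from 13.8 ± 1.42 to 11.5 ± 1.05 RPKM, or by 0.25 on the log2 scale (limma adjusted p = 0.00196). Over all genes tested, 24.8% were higher and 23.5% lower. Of 13 genes of FoxK partners, namely Dvl2 and genes of the Sin3 and BAP1 complexes, 6 were higher, 2 lower (Bap1 and Dvl2) and 5 not called, with a median of 0.074. The largest changes were those of Sap30 (3.38 to 4.70 RPKM), Asxl1 (10.0 to 12.4 RPKM) and Sap130 (9.90 to 11.8 RPKM), all higher.

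Foxp1 and Foxp4, which act in neuronal differentiation, were not called. Foxp1 ran from 9.94 to 12.8 RPKM in WT (median 11.3) and from 9.96 to 12.5 RPKM in R6/1 (median 11.6). The groups covered the same range, with means of 11.4 ± 0.843 and 11.6 ± 0.789 RPKM and a log2 difference of 0.02 ± 0.0484 (limma adjusted p = 0.730). Foxp4 had 11.3 ± 0.705 and 11.1 ± 1.18 RPKM and was not called (log2 fold change -0.02, limma adjusted p = 0.768). Again, 24.8% of all genes tested were higher and 23.5% lower. Of 16 tested FoxP cofactors and genes linked to FOXP2, 5 were higher, 5 lower and 6 not called, with a median of 0.00071. Among the called were Bcl11b, which fell from 26.3 to 17.2 RPKM, and Lmo4, which fell from 66.4 to 46.0 RPKM.

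Foxp2, a gene of striatum, thalamus and deep cortex, was below the threshold for the test, with 0.133 to 0.724 RPKM in WT (median 0.394) and 0.197 to 0.621 RPKM in R6/1 (median 0.343). Across the WT libraries it followed a list of 12 striatum and thalamus markers (r = 0.847, exact permutation p = 0.00250, adjusted 0.00879; rho = 0.883, p = 0.00308, adjusted 0.00769, n = 9), with r at 0.620 without the 2 farthest libraries. In R6/1 r was 0.312 (exact permutation p = 0.410, adjusted 0.423) and rho 0.433 (p = 0.250, adjusted 0.278, n = 9), with r at 0.226 without the 2 farthest. Whether the relation differs between genotypes was not tested. The list itself was lower in R6/1 for 7 of 12 genes and higher for 0, and its summed level was 78.2 to 129 RPKM in WT and 46.0 to 64.7 RPKM in R6/1, without overlap and with none of its markers at 0. The part of neighbouring tissue in the Foxp2 level was not tested.

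Among the FoxN and FoxR genes, Foxn3, a repressor linked to the cell-cycle checkpoint, was the most abundant, with 6.86 to 8.28 RPKM in WT (median 7.85) and 6.44 to 8.58 RPKM in R6/1 (median 7.59). The R6/1 range enclosed the WT range, and the gene was not called (7.65 ± 0.519 against 7.41 ± 0.743 RPKM, log2 fold change -0.05 ± 0.0558, limma adjusted p = 0.523). Its paralogue Foxn2 fell from 6.63 ± 0.561 to 5.56 ± 0.534 RPKM, or by 0.24 on the log2 scale (limma adjusted p = 0.00223). Foxr1 was scarce and not called, with 0.662 ± 0.187 and 0.626 ± 0.190 RPKM (log2 fold change -0.05, limma adjusted p = 0.760).

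**Figure D5:**
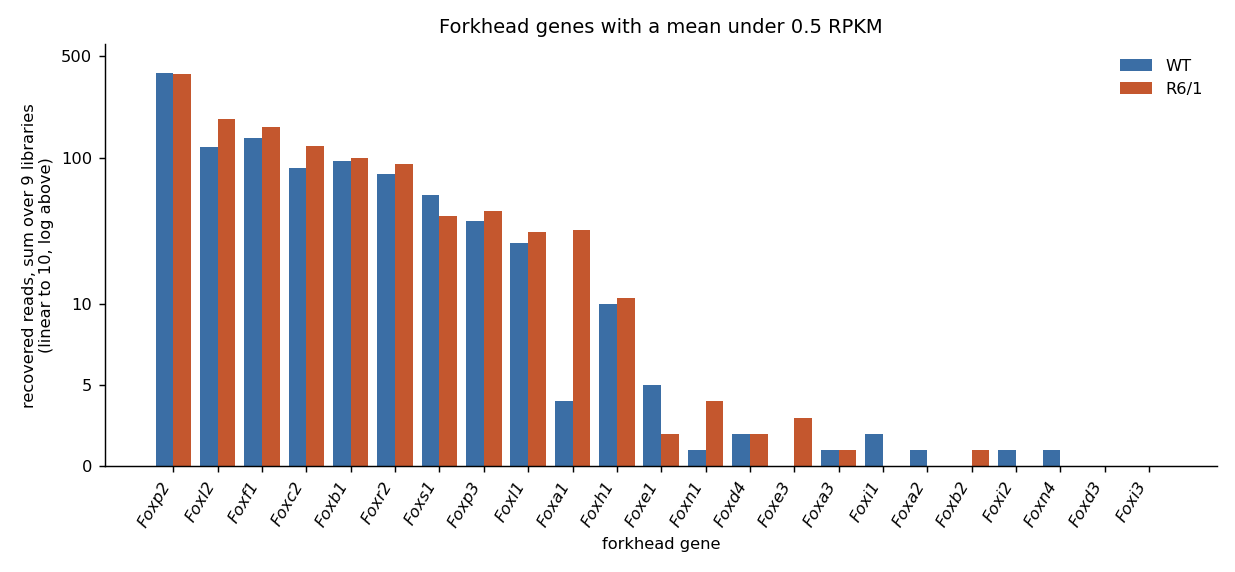
Reads of the 23 forkhead genes with a mean under 0.5 RPKM, summed over the 9 libraries of each genotype (bars; axis linear to 10 reads and logarithmic above). Foxa1 had 4 reads in WT and 32 in R6/1, and Foxd3 and Foxi3 had none in either genotype.

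Of the 23 genes under the threshold, 13 never had more than 3 reads in any library, and Foxd3 and Foxi3 had 0 reads throughout. Among these 13 were regulators of other organs: Foxa2 and Foxa3 of liver, Foxe1 of thyroid, Foxi1 of inner ear and kidney and Foxn1 of thymus, each with 5 reads or fewer per genotype. Foxh1, a Smad partner in the early embryo, had 10 and 11 reads. The better detected scarce genes included Foxl2, known from ovary (0.369 against 0.518 RPKM), Foxf1, of lung and gut mesenchyme (0.434 against 0.474), Foxs1, of pericytes (0.331 against 0.214), Foxc2 (0.236 against 0.313), Foxb1, of the mammillary region and thalamus (0.246 against 0.235), and Foxr2 (0.187 against 0.199 RPKM). Foxp3, of regulatory T cells, lay at 0.0736 and 0.0773 RPKM and Foxl1 at 0.0701 and 0.0761 RPKM.

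Foxa1, a pioneer factor of endoderm that also acts in midbrain dopamine neurons, was the scarce gene that differed most. It had 4 reads in 3 WT libraries and 32 reads in 8 R6/1 libraries, at most 2 and 7 per library, and its means were 0.0100 ± 0.0172 and 0.0708 ± 0.0423 RPKM. A WT library, replicate 1 at 0.0494 RPKM, overlapped the R6/1 libraries, of which replicate 5 had 0 reads. Fitted without the filter on low values, Foxa1 was called higher (limma adjusted p = 0.00341), as it is in the authors' deposited table (adjusted p = 0.00198). In the authors' deposited table, 11 of the 32 forkhead genes with an adjusted p were called, against 40.4% of all genes with one. These were the 10 called here and Foxa1.

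The position of the genes relative to the lamin B1 domains was read on NCBIM37, where all 44 were placed, 43 by symbol and Foxf1 through its synonym Foxf1a. Start sites of 4 genes, among them Foxa1, Foxi3 and Foxp2, lay in a domain of both genotypes, that of Foxo4 lay in a WT domain only, and 39 lay in none. This was 11.4% of the family in a WT domain and 9.09% in an R6/1 domain, against 20.0% and 15.7% of the 20512 symbols placed by name. Each genotype has a single list, so these shares have no replicate check.

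Foxa1 (chromosome 12, 58641618 to 58647108, minus strand) lay in the WT domain 42698001 to 70226000 and in the shorter R6/1 domain 57720001 to 70078000. The nearest border was 11579 kb from its start in WT and 927 kb in R6/1. Foxi3, with 0 reads in every library, also had its start inside domains of both genotypes. Foxo4 (chromosome X, 98449867 to 98456212, plus strand), which rose, was inside the WT domain 52540001 to 120139000 and 3101 kb from the nearest R6/1 domain. Foxd2 was outside in both, 659 kb from the nearest WT domain and 585 kb from the nearest R6/1 domain. A relation between position and RNA level was not tested.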

How the data were processed

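RNA-seq (9 WT and 9 R6/1 hippocampal libraries) and lamin B1 domains (1 list per genotype) were analysed. Reads of the ChIP and ATAC libraries were not used here. The authors deposited RPKM for 24508 gene symbols from stranded messenger RNA libraries, per the labels' protocols. The submitters' processing notes name TopHat, Bowtie, DESeq2 and build mm9, without a role; the counter, annotation and counting strand are not given in the sources used here. Per gene, the authors' deposited comparison holds a signal (the mean normalized count), a log2 fold change, a test score, and p-values raw and adjusted; 6113 genes have no adjusted p-value there. Rescaled so that each gene's average equalled that mean count, the deposited RPKM were whole multiples of 1 step per library for 99.87% to 99.91% of values (tolerance 0.05 read), which gave back the reads. Intervals and limits cover counting error only, and 0 reads allow up to 3. In the domain lists, the authors' deposited score per domain was not used; no domain passed a chromosome end of NCBIM37 (mm9).

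Each gene was tested with limma 3.58.1 in R 4.3.3 (lmFit and eBayes with trend, two-sided, Benjamini-Hochberg, threshold 0.05) on log2(RPKM + 0.5) over the 14446 genes averaging 0.5 RPKM or more. The script was tested on simulated data. Marker relations used the mean log2(RPKM + 0.5) of a list's genes at 0.5 RPKM or more and exact two-sided permutation tests over all pairings, within each genotype. The members and the gene lists, written from general knowledge, were chosen with earlier results of these data known. Named by rule were the forkhead genes, library by library where called with a log2 difference of 0.3 or more, without overlap, or most abundant of its subfamily, and the 3 called genes of each pathway list with the largest change. Alternatives covered the pseudocount (0.1 and 1), the filter (none and 2 RPKM), 3 scalings, 2 other tests, the authors' table, a replicate block, Ttr as a covariate and each library left out. The relations of Foxj1 over 6 WT libraries were added after seeing the data. Replicate numbers are shared between genotypes, but nothing in the labels ties them. Results for 1 tested forkhead gene and 2 genes of the pathway lists are not reported here.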

Additional observations from a re-analysis of the deposited data

Results flagged for a closer look

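In 3 of 42 groups of 9 libraries (each tested forkhead gene in each genotype), the highest library stood apart by Dixon's criterion, where chance would give about 2.1. Foxj2 had 9.31 RPKM in WT replicate 4 (751 reads), with the next WT library at 8.60 RPKM. Foxo3 had 11.9 RPKM in R6/1 replicate 6, with the next at 9.92 RPKM. Without that library its limma adjusted p was 0.0630, within a range of 0.00354 to 0.0630 over all alternatives. Foxq1 had 1.46 RPKM in R6/1 replicate 4, with the next at 1.22 RPKM. Without it the gene's log2 fold change was -0.56 and its limma adjusted p 1.6e-05.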

How the results depend on the processing

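Under the alternatives run, no called forkhead gene reversed, and 598 of 624 combinations of a gene and an alternative kept the side of the threshold. The count of genes higher in R6/1 fell from 7 to 3 with a filter of 2 RPKM, which leaves 15 genes to test. With the replicate number as a block, 7 genes were higher and 4 lower. Same-numbered libraries correlated between -0.053 and 0.237 in their deviations, and 2 of 9 WT libraries correlated best with their own number, so the numbers were not taken as pairs. Quantile normalization called Foxf2 (adjusted p = 0.0188) and Foxk2 (0.00848), and scaling to each library's own total also called both (0.0225 and 0.000208). Under that scaling 66.9% of all calls were higher, against 51.4%, and the median of all genes was 0.069 (log2), and the uncalled log2 fold changes of Foxn3 and Foxp4 changed sign, to 0.02 and 0.05. Ttr as a covariate called Foxo1 (adjusted p = 0.0198). Depth limits Foxd2 in WT, with 1 to 6 reads per library, and the 13 genes with 3 reads or fewer.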
